A study of Hordeum vulgare with 2 samples.

Results

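The lists of barley transcript positions assigned to the small RNA families miR2118, miR482 and miR9863 were described in degradome libraries of 2 barley cultivars. The records were chosen by name alone: every record whose small RNA name holds miR2118, miR482 or miR9863, in capitals or not, was taken, whatever its values. They came to 395 of 17485 records in ZD9, of which 358 hold values, and to 910 of 40424 records in XZ153. Together the 1305 records, of 57909 in all, name 690 gene IDs under 15 small RNA names. Of these names, 7 are written as mature microRNAs (miR) and 8 as pieces of a hairpin arm (MIR, followed by p5 or p3). The ZD9 records with values fall on 182 genes and 349 transcripts, and the XZ153 records on 560 genes and 877 transcripts.

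ZD9 and XZ153 are cultivars of Hordeum vulgare, and 1 library of shoot RNA was made from each. Seedlings were given potassium at 0.01 mM (low) or 1 mM (control) in hydroponic solution from the stage of 2 leaves, and the labels do not say which level each library came from. From 20 µg of total RNA, poly(A) RNA was selected, adapters were joined to the free 5′ monophosphate ends left by cleavage, and the product was amplified over 15 PCR cycles and read for 50 nt. With 1 library per cultivar there is no replicate check, so no test between cultivars was made, and intervals given here are exact 95% intervals for counting error only. PCR copies and isoforms that repeat 1 cut make the true error larger.

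Each record pairs 1 small RNA with 1 transcript and 1 cut position. Its Allen score is a penalty for unpaired bases, in which a lower value means better pairing, and its free energy ratio divides the pairing energy of the site by that of a perfect match. Its category runs from 0, for the highest position of its transcript, through 1, a tie for highest, to 4, for a single read. Categories 2 and 3 are lower positions with more than 1 read, of which 2 is the higher class. The depth that divides these 2 classes was not checked here. The deposited p-value is that of 1 record and is not adjusted. Here supported means category 0, 1 or 2 together with a p-value no higher than 0.05, a combination chosen with the data known. The records of ZD9 that hold values stop at transcript HORVU2Hr1G036110.5, and the 174 XZ153 records of these families up to that ID, on 111 genes, are called the shared range. Every position is listed under 1 small RNA name, with 15544 distinct positions in 15544 ZD9 records and 40424 in 40424 XZ153 records, so the lists never give a second name at the same position.

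MicroRNAs guide an Argonaute protein to paired messenger RNA, which is cut opposite bases 10 and 11 of the small RNA. The miR482 and miR2118 superfamily is known in eudicots and conifers for targeting the stretch of NLR immune receptor messages that encodes the P-loop, the nucleotide-binding loop of these proteins. Members of 22 nt can also set off the production of phased secondary small RNAs from the cut message. In rice and maize, miR2118 is known mainly from anthers, where it cuts long non-coding transcripts that yield phased small RNAs. In barley and wheat, miR9863 is known for cutting messages of Mla, an NLR gene of powdery mildew resistance. The gene IDs in the lists carry no descriptions, and 0 of the 690 matched the annotation used here, so it is not stated which of them encode NLR proteins.

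The 7 mature names, all of 22 nt, are printed 5′ to 3′ with the seed, bases 2 to 8, in capitals. The prefixes gma, ghr, gra and ata stand for soybean, Gossypium hirsutum, Gossypium raimondii and Aegilops tauschii, and the suffix records how the sequence differs from the named entry.
gma-miR2118a-3p_R+1_1ss18TG: uUGCCGAUuccacccaugccua
ghr-miR482b: uCUUGCCUacuccacccaugcc
gma-miR482b-3p_1ss8TA: uCUUCCCAacaccucccauacc
gra-miR482_L-2R+2: uUUCCAAUuccucccauuccac
ata-miR9863a-3p: uGAGAAGGuagaucauaauagc
ata-miR9863a-3p_1ss9TC: uGAGAAGGcagaucauaauagc
ata-miR9863a-3p_2ss14CT18AG: uGAGAAGGuagauuauaguagc
The 3 miR9863 names share 1 seed, whereas the miR2118 name and the 3 miR482 names have 4 different seeds. Outside the seed, gma-miR2118a-3p and ghr-miR482b have a run of 12 bases in common, at bases 9 to 20 of the first and 11 to 22 of the second.

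The hairpin-arm names are 18 to 20 nt long, and the 6 printed here, in the same notation, held nearly all hairpin-arm records (osa stands for rice). The other 2 are a shifted copy and a longer copy of the osa-MIR2118e-p3 sequence printed here.
gma-MIR2118b-p5_1ss3AT: uUUUUCUUuugccgauuc
osa-MIR2118f-p5_2ss6TC20GC: cUCCUCCCccuuccuucuuc
osa-MIR2118b-p5_2ss7GC17TA: aAAUGACCucucagugau
osa-MIR2118e-p3_2ss12TA18CT: aAAAGAGAgucaaagagu
gra-MIR482-p3_2ss10TA17AC: uCCACUGAuauccagccc
ata-MIR9863a-p5_2ss10GT17GA: aUCAUAAUaucugagcaa
The soybean arm piece is 61.1% U, and its last 10 bases (9 to 18) are the first 10 of gma-miR2118a-3p. The Aegilops arm piece starts with 9 bases that stand at positions 12 to 20 of ata-miR9863a-3p.

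Most of the listed positions belong to hairpin-arm pieces and not to the mature microRNAs. Hairpin-arm names held 313 of the 358 ZD9 records (87.4%, 83.5 to 90.7%) and 836 of the 910 XZ153 records (91.9%, 89.9 to 93.6%). Among the other records, names not written as mature microRNAs held 72.4% in ZD9 and 74% in XZ153. These other non-mature names include names that begin with PC as well as hairpin-arm pieces, and the kinds were not separated. In the set, mature names held the remaining 45 records on 23 genes in ZD9 and 74 on 45 genes in XZ153. A single name, gma-MIR2118b-p5_1ss3AT, gave 183 records on 101 genes in ZD9 (51.1% of the set, 45.8 to 56.4%) and 489 records on 324 genes in XZ153 (53.7%, 50.4 to 57%). By number of records it ranked 9 among the 784 names of ZD9 and 9 among the 869 names of XZ153, where the median name had 10 and 19 records. The rice arm piece osa-MIR2118f-p5 followed with 45 records in ZD9 and 155 in XZ153. The mature soybean miR2118 had 9 records on 5 genes in ZD9 and 20 records on 12 genes in XZ153, below the median name in ZD9 and 1 record above it in XZ153.

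**Figure D1:**
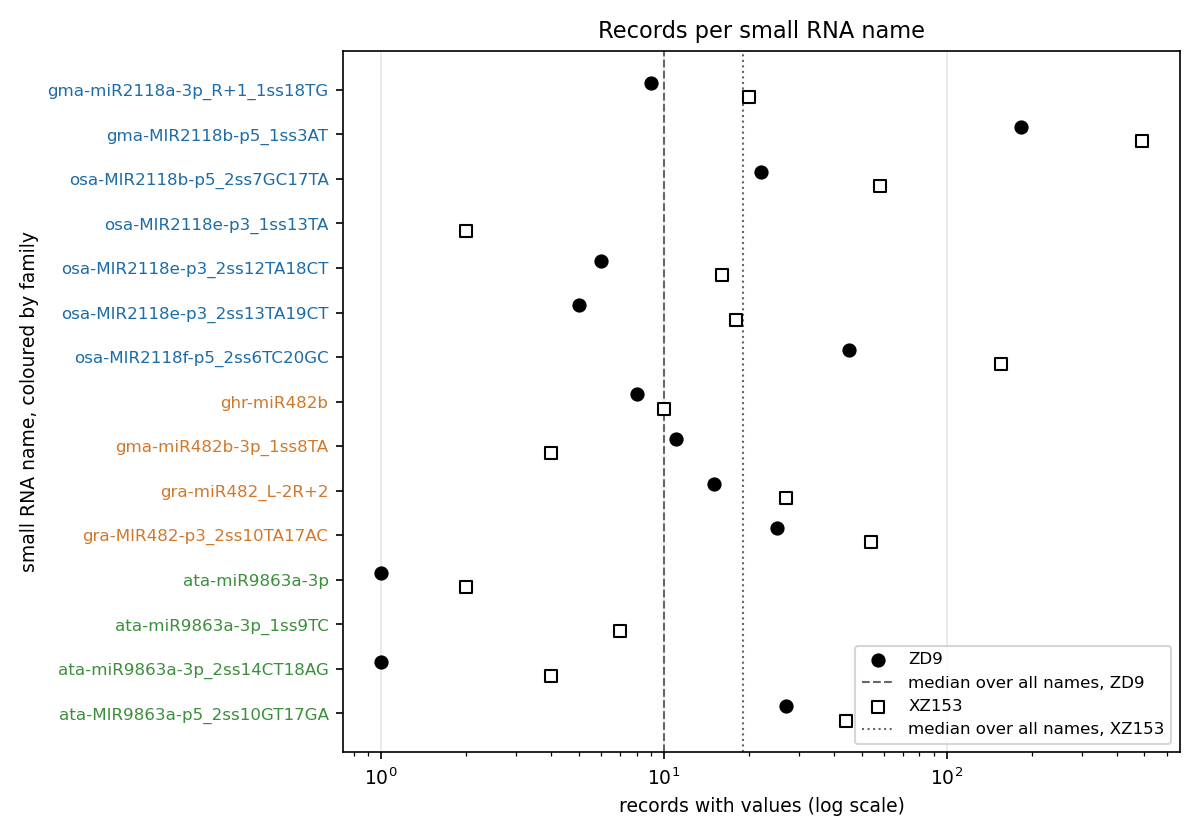
Records with values of each of the 15 small RNA names, on a log scale, in ZD9 (filled circles) and XZ153 (open squares), with names coloured by family and vertical lines at the median over all names. The soybean hairpin-arm piece gma-MIR2118b-p5_1ss3AT stands far to the right with 183 and 489 records, and the 3 mature miR9863 names lie at 7 records or fewer; a name with no record in a library has no symbol there.

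By family, miR2118 covered 147 genes in ZD9 (exact Poisson interval 124 to 173) and 481 in XZ153 (439 to 526). The miR482 names covered 26 genes in ZD9 (17 to 38.1) and 54 in XZ153 (40.6 to 70.5). The miR9863 names covered 15 genes in ZD9 (8.4 to 24.7) and 38 in XZ153 (26.9 to 52.2). Of the miR482 genes, 18 in ZD9 and 28 in XZ153 were reached by a mature name, against 2 and 6 of the miR9863 genes. The larger XZ153 numbers come with a list that covers all transcript IDs, since within the shared range XZ153 had fewer genes, at 96 for miR2118, 13 for miR482 and 6 for miR9863. In that range XZ153 held no record of the mature miR2118 or miR9863 names and 7 of mature miR482 names.

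Few of these positions met both limits for support, as in the lists as a whole. In ZD9, 0 of 358 records were supported, which allows a share of up to 0.838% by the rule of 3 counts and has an exact upper end of 1.03%, while 0.695% of all ZD9 records and 0.337% of its pairs of family and gene were supported. In XZ153, 3 of 910 records were supported, or 0.33% (0.068 to 0.96%), on 3 genes, while the share over all XZ153 records was 0.675% and that over all pairs was 0.615%. The lower end of the XZ153 interval lies under these background shares and the upper end above them. Within the shared range of XZ153, 0 of 174 records were supported, which allows up to 1.72% by the same rule and has an exact upper end of 2.1%, against 0.910% of all records and 0.755% of all pairs there. Among mature names only, 0 of 45 records were supported in ZD9 and 2 of 74 in XZ153 (2.7%, 0.329 to 9.42%), while other mature names reached 1.95% in ZD9 and 1.68% in XZ153. Among hairpin-arm names, 0 of 313 records were supported in ZD9 (exact upper end 1.17%), against 0.237% for other non-mature names. In XZ153 1 of 836 arm records was supported (0.12%, 0.00303 to 0.665%), against 0.332% for other non-mature names. All 3 supported genes lie beyond the last ZD9 record that holds values, so ZD9 could not show them.

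The supported miR9863 site is on HORVU6Hr1G002550 and was listed for the mature name ata-miR9863a-3p_1ss9TC. Its target sequence is printed with the base at the deposited cut position in capitals, because it is the best paired site of any mature name in the set.
HORVU6Hr1G002550, miR9863: gcugaugaucUgccuucucu
On isoform 5 the cut at position 1106 was in category 0 with a p-value of 0.00507, an Allen score of 3.5 and a free energy ratio of 0.821. The same 20 bases were listed on 4 more isoforms, all in category 4, with p-values of 0.221 on isoform 10, 0.218 on isoform 18, 0.231 on isoform 21 and 0.201 on isoform 26. The call of this gene therefore rested on 1 of 5 isoforms.

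Both other mature miR9863 names could pair along the same alignment of HORVU6Hr1G002550. Of its 19 paired bases, the listed name forms 18 Watson-Crick pairs and 1 G-U pair, ata-miR9863a-3p forms 17 and 2, and ata-miR9863a-3p_2ss14CT18AG forms 16 and 3, with no unpaired base in any of them. The list gives the position to the name with the most Watson-Crick pairs of the 3. The gene had 7 XZ153 records under any name, and this was its single category 0 record.

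Mature miR2118 had its supported site on HORVU4Hr1G061740, isoform 5.
HORVU4Hr1G061740, miR2118: uaggcguggcgugGuggugcggcaa
The cut at position 1064 was in category 0 with a p-value of 0.0295, but the Allen score of 7.5 and the free energy ratio of 0.736 describe weaker pairing than at the miR9863 site. All 22 bases of the small RNA are paired, 19 in Watson-Crick and 3 in G-U pairs, around unpaired bases of the target. The gene was listed on 3 transcripts in XZ153 under 3 names, and the miR2118 record was the single one in category 0.

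The third supported site is on HORVU6Hr1G005360, isoform 2, under the hairpin-arm name osa-MIR2118b-p5_2ss7GC17TA.
HORVU6Hr1G005360, MIR2118b-p5: gucgcugaGagguugaga
This cut at position 3241 was in category 1 with a p-value of 0.0168 and an Allen score of 9. On isoform 31 the same bases were in category 4 with a p-value of 0.472. At each of the 3 supported sites the deposited cut position lay opposite base 10 of the small RNA, as it did in 334 of the 358 ZD9 records and 833 of the 910 XZ153 records.

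**Figure D2:**
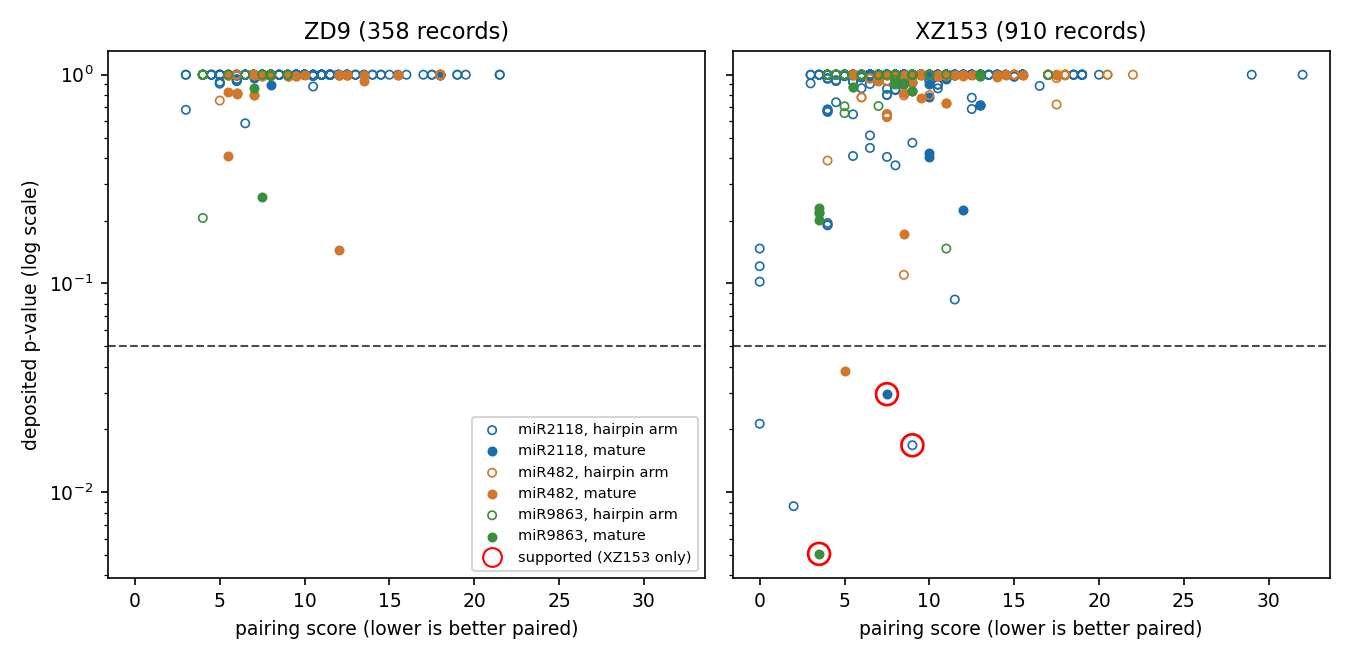
Deposited p-value (log scale) against the Allen pairing score, 1 point per record, for ZD9 (left) and XZ153 (right), coloured by family, with filled points for mature names and open points for hairpin-arm names. In ZD9 all 358 points lie above the dashed line at a p-value of 0.05, and in XZ153 6 of 910 lie below it, of which the 3 ringed in red were also in category 0 to 2.

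The other mature miR2118 records were mostly single reads. In ZD9 its 5 genes were HORVU1Hr1G017480, HORVU1Hr1G052040, HORVU1Hr1G079430, HORVU2Hr1G004720 and HORVU2Hr1G029220, with 1 or 2 reads at each position, Allen scores of 7 to 18 and p-values of 0.891 or more. In XZ153, HORVU3Hr1G021750 was in category 1 with a p-value of 0.225 and an Allen score of 12. HORVU5Hr1G114220 was in category 2 with a p-value of 0.779, and HORVU3Hr1G068500 was in category 2 on 3 isoforms with p-values of 0.713 to 0.717. The remaining XZ153 genes were in category 4, and no gene carried a mature miR2118 record in both libraries. These genes were picked after their values were seen.

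The strongest ZD9 record by p-value was a miR482 site. On HORVU2Hr1G023660, isoform 19, gma-miR482b-3p_1ss8TA was listed at position 239 with 4 raw reads, in category 0, with a p-value of 0.145 and an Allen score of 12.
HORVU2Hr1G023660, miR482, ZD9: ggugugguggggguGuggauggugagga
The lowest p-value of miR9863 in ZD9 was 0.206 and that of miR2118 was 0.585. No ZD9 record of the set had a p-value of at most 0.05 in any category, against 0.914% of all ZD9 records. In XZ153 6 of 910 did, against 1.03% of all records, and in its shared range 1 of 174 did, against 1.44%. P-values above 0.9 made up 95.5% of the set in ZD9 and 91.5% in XZ153, compared with 92.3% and 85.9% over all names. Among mature names the order was the other way, at 75.6% of the set in ZD9 (60.5 to 87.1%) against 89.4% for other mature names, and at 67.6% of the set in XZ153 (55.7 to 78%) against 81% for other mature names.

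Category 0, the single highest position of a transcript, was reached by 4 of 358 records in ZD9 (1.12%, 0.305 to 2.84%) on 4 genes, while 1.70% of all ZD9 records were in it. It was reached by 6 of 910 records in XZ153 (0.659%, 0.242 to 1.43%) on 6 genes, while 1.49% of all XZ153 records were in it. The XZ153 interval ends below the background share and the ZD9 interval includes it. That background mixes kinds of names. In XZ153 hairpin-arm names held 91.9% of the set, while non-mature names of any kind held 74% of the other records. Category 0 held 0.359% of the arm records of the set in XZ153 (0.0741 to 1.05%) and 4.05% of its mature records (0.844 to 11.4%). Other names had 595 category 0 records among 39514 there, and of these, mature names gave 255 among 10282 (2.48%). The rest fell on 29232 records of other non-mature names. Whether the mix of names accounts for the lower share of the set was not tested. In the shared range of XZ153 it was 1 of 174 records, against 1.40% of all records there. Mature names held 1 of the 4 in ZD9 and 3 of the 6 in XZ153. Beside the genes already named, these were the miR2118 arm records of HORVU1Hr1G018190, HORVU1Hr1G076090 and HORVU2Hr1G031470 in ZD9, each with 3 or 4 reads and a p-value of 0.585 or more. In XZ153 they were the arm records of HORVU2Hr1G116800, HORVU5Hr1G115030 and HORVU0Hr1G022290 and the mature miR482 record of HORVU3Hr1G072880. HORVU1Hr1G018190, HORVU1Hr1G076090, HORVU2Hr1G031470, HORVU2Hr1G116800 and HORVU5Hr1G115030 fall outside the naming rule and were picked after their values were seen.

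Single-read positions made up most of the set. Category 4 held 73.5% of the ZD9 records (68.6 to 78%), above the 66.2% of all ZD9 records, and 77% of the XZ153 records (74.2 to 79.7%), where the share over all records was 73.4%. In the shared range of XZ153 it held 79.9%, against 73.2% of all records there. By family the shares were 71.9% and 75.7% for miR2118, 74.6% and 80% for miR482, and 86.2% and 89.5% for miR9863, with ZD9 first in each pair. The interval of miR9863 runs from 68.3 to 96.1% in ZD9 and from 78.5 to 96% in XZ153, so the family shares overlap.

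**Figure D3:**
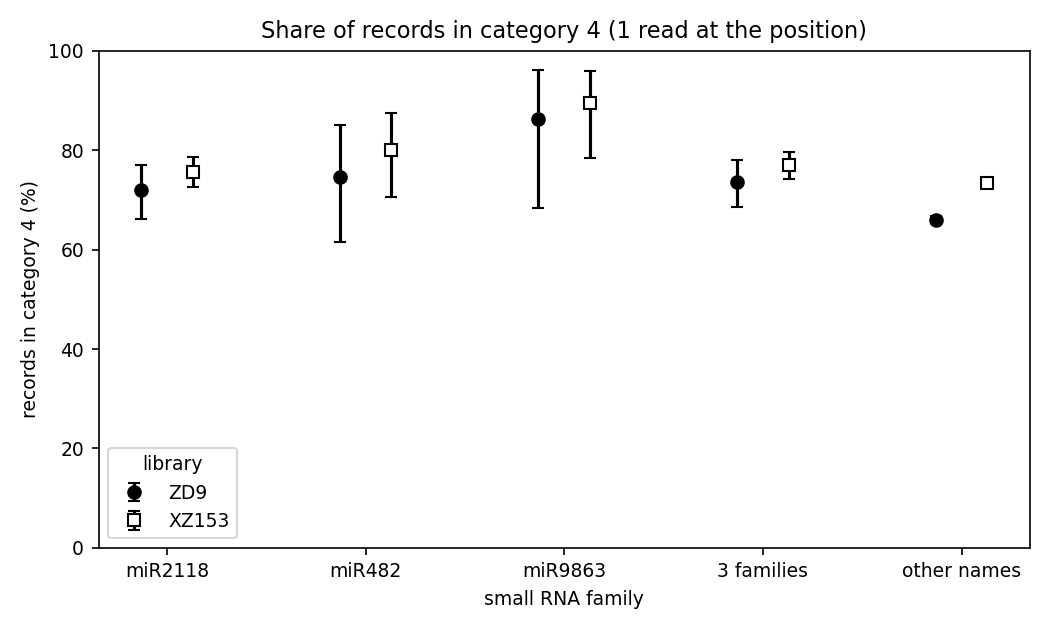
Share of records in category 4, in percent, for each family, for the set as a whole and for all other names, in ZD9 (filled circles, left of each pair) and XZ153 (open squares), with exact binomial 95% intervals as bars. The set lies at 73.5% in ZD9 and 77% in XZ153, the other names at 66% and 73.3%.

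By its median and at a limit of 4, pairing in the set was near that of the lists as a whole, and at a stricter limit of 2.5 fewer records passed. The median Allen score was 8.5 in the set and 8.5 over all names, in both libraries. An Allen score of at most 4 was found for 15 ZD9 records on 5 genes (4.19%, 2.36 to 6.82%), near the 3.68% of all ZD9 records. It was found for 43 XZ153 records on 23 genes (4.73%, 3.44 to 6.31%), where 3.74% of all XZ153 records had it, and for 7 of the 174 in its shared range, against 3.80% there. The ZD9 records at this limit were all of hairpin-arm names, and the mature records at this limit in XZ153 were the 5 isoforms of HORVU6Hr1G002550. A score of at most 2.5 was found for 0 of 358 ZD9 records (exact upper end 1.03%), against 1.42% of all ZD9 records. It was found for 5 of 910 XZ153 records (0.549%, 0.179 to 1.28%), against 1.24% of all XZ153 records, and for 0 of the 174 in its shared range, against 1.66% there.

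Perfect pairing occurred with the rice arm piece osa-MIR2118e-p3_2ss12TA18CT. Its exact complement was found in XZ153 on HORVU2Hr1G039300, HORVU2Hr1G039320, HORVU5Hr1G015380 and HORVU5Hr1G076970, and it is shown because 4 gene IDs carry the same 18 bases.
HORVU2Hr1G039300, MIR2118e-p3: acucuuugAcucucuuuu
All 4 records were in category 4, with p-values of 0.0213 on HORVU2Hr1G039300, 0.102 on HORVU5Hr1G015380, 0.121 on HORVU2Hr1G039320 and 0.147 on HORVU5Hr1G076970. The sources used here do not say how reads were divided among copies of 1 sequence, so these 4 records may not be independent. These 4 genes were picked after their values were seen.

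HORVU2Hr1G046740 was picked after its values were seen. On it, osa-MIR2118e-p3_2ss12TA18CT and its longer copy were listed 1 base apart in XZ153. They covered 9 isoforms, with an Allen score of 4 throughout.
HORVU2Hr1G046740, MIR2118e-p3_2ss12TA18CT: acucuuugCcuccuuuu
HORVU2Hr1G046740, MIR2118e-p3_2ss13TA19CT: acucuuugcCuccuuuuc
On isoform 15 the cut under the first name was in category 4 with a p-value that rounds to 1, and the cut under the second was in category 2 with a p-value of 0.19. Isoforms 18 and 20 were in category 2 under the second name, with p-values of 0.195 and 0.191. The 12 records of this gene therefore describe 2 neighbouring positions of 1 stretch.

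The most frequent arm piece, gma-MIR2118b-p5_1ss3AT, had its lowest p-value, 0.00858, on HORVU4Hr1G064110 in XZ153, a gene picked after its values were seen.
HORVU4Hr1G064110, MIR2118b-p5: gaaucggcAaaagagaau
The Allen score there was 2 and the free energy ratio was 1, but the position was in category 4. In XZ153 the same piece was listed with 1 target sequence on 9 genes and with another on 8 genes, at Allen scores of 8 and 15.5. Its 489 XZ153 records included none in category 0, and its 183 ZD9 records included 2.

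The best paired mature miR482 site was on HORVU2Hr1G032170, 1 of the 3 genes with mature miR482 records in both libraries. In ZD9 it was listed for gra-miR482_L-2R+2, and in XZ153 for gma-miR482b-3p_1ss8TA, over nearly the same bases.
HORVU2Hr1G032170, ZD9: guggcggugggggGuguuggaga
HORVU2Hr1G032170, XZ153: ggcggugggggguGuuggagaaga
In ZD9 isoforms 3 and 9 had 1 read each in category 4, with an Allen score of 7 and p-values of 0.801 and 0.803. In XZ153 isoform 11 was in category 4 with an Allen score of 5, a free energy ratio of 0.812 and a p-value of 0.038.

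The other miR482 records of the naming rule had higher p-values or weaker pairing. HORVU2Hr1G004720 was listed in ZD9 for gma-miR482b-3p_1ss8TA, with 2 reads in category 2 on isoform 2, an Allen score of 5.5 and a p-value of 0.408. HORVU1Hr1G027420 was listed for gra-miR482_L-2R+2 in both libraries, on 4 isoforms in ZD9 with 1, 1, 2 and 2 reads and on 1 isoform in XZ153, with an Allen score of 5.5 and p-values that round to 1. HORVU3Hr1G072880 reached category 0 on isoform 5 in XZ153 with a p-value of 0.173, while its isoform 3 was in category 4. HORVU0Hr1G008280 was listed at the same position of isoform 5 in both libraries, with 1 read and a p-value of 0.996 in ZD9 and a p-value of 0.944 in XZ153. HORVU1Hr1G047220 had 3 reads on isoform 3 and 1 read on isoform 1 in ZD9, with an Allen score of 13.5.

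Hairpin-arm records of miR482 came to 25 on 9 genes in ZD9 and 54 on 26 genes in XZ153. Of these genes, 6 in ZD9 and 14 in XZ153 had 1 record, and others were listed on several isoforms. The site of gra-MIR482-p3 on HORVU1Hr1G090710 was listed on 10 isoforms in ZD9 with 1 to 4 reads, and on 8 isoforms in XZ153, at an Allen score of 18. On HORVU1Hr1G001890 it was listed on 7 isoforms in ZD9 and 2 in XZ153, with an Allen score of 6. HORVU0Hr1G023870 carried the arm record with the lowest miR482 arm p-value, 0.11, in category 3 of isoform 3 in XZ153. HORVU1Hr1G008330 had 2 reads in category 2 in ZD9, with an Allen score of 5 and a p-value of 0.752. HORVU0Hr1G003890 was listed under miR482 in both libraries.

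In ZD9 the mature miR9863 names had 2 records. HORVU0Hr1G016150 had 2 reads in category 3, with an Allen score of 7.5 and a p-value of 0.26, under ata-miR9863a-3p_2ss14CT18AG. HORVU2Hr1G035780 had 1 read, with an Allen score of 7 and a p-value of 0.864, under ata-miR9863a-3p. Neither gene was listed for the family in XZ153. The name ata-miR9863a-3p_1ss9TC, which gave the supported site in XZ153, had no ZD9 record with values.

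The miR9863 arm piece gave the family's remaining records, 27 in ZD9 and 44 in XZ153. Its most repeated site lies on HORVU1Hr1G053080.
HORVU1Hr1G053080, MIR9863a-p5: cuggucaagAuauuaugau
The site was listed on 10 isoforms in ZD9, each with 1 read, and on 4 isoforms in XZ153, all in category 4 with an Allen score of 4 and p-values that round to 1. Of the 11 ZD9 records of this family with an Allen score of at most 4, 10 are isoforms of this gene. The other is HORVU2Hr1G006280, with 2 reads in category 2 and a p-value of 0.206. In XZ153 the arm piece reached category 0 on isoform 2 of HORVU0Hr1G022290, with an Allen score of 11 and a p-value of 0.147, while isoform 1 was in category 4. HORVU1Hr1G028680 had a p-value of 0.655 in XZ153. In ZD9, AGP50752 had 3 reads, the most of any miR9863 record, and HORVU0Hr1G000780 had 2 and 1.

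Isoforms of 1 gene gave unequal categories at the same bases. In ZD9, 82 of 197 sites were listed on more than 1 isoform, and the category differed between isoforms at 28 of them (34.1%). In XZ153, 189 of 607 sites were listed on more than 1 isoform, and the category differed at 69 (36.5%). The sources used here do not say how a read that matches several isoforms was counted.

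Raw reads were used for ZD9 alone, and the total depth of both libraries is unknown. The 358 records summed to 611 reads, 1.75% of the 34935 reads in the ZD9 list. Counted once per site at the isoform with the most reads, the 197 sites held 371 reads, of which miR2118 had 309, miR482 had 42 and miR9863 had 20. The highest single value was 35 reads for miR2118, 4 for miR482 and 3 for miR9863. More than 1 read was found for 95 of the 358 records, which is the complement of the 73.5% in category 4, against 33.8% of all ZD9 records.

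The 3 genes with the most reads had Allen scores of 7 to 12.5 and p-values that round to 1, and they were picked after their values were seen. The 35 reads were at position 744 of HORVU1Hr1G049280 for osa-MIR2118f-p5, in category 2 with an Allen score of 8, and this record was not listed in XZ153. HORVU0Hr1G003270 had 18, 11 and 18 reads on isoforms 1, 2 and 3 for the soybean arm piece, in category 3 with an Allen score of 12.5, and all 3 records were listed again in XZ153. HORVU2Hr1G021070 had 14 reads and was in category 2 in both libraries. No mature name had more than 4 reads at any position.

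The share of genes listed in both libraries was near that over all names. Over the shared range, 53 pairs of family and gene were in both lists, which was 28.2% of the 188 ZD9 pairs (21.9 to 35.2%) and 46.1% of the 115 XZ153 pairs (36.8 to 55.6%). Over all names the shares were 31.7% of ZD9 pairs and 47.4% of XZ153 pairs. Of the 53 pairs, 45 were of miR2118, 6 of miR482 and 2 of miR9863, and 3 rested on a mature name in both libraries, all of miR482. The named miR2118 genes in both lists were HORVU0Hr1G004130, HORVU0Hr1G008280, HORVU0Hr1G018380, HORVU1Hr1G004230, HORVU1Hr1G018720, HORVU1Hr1G024710, HORVU1Hr1G042270, HORVU1Hr1G043940, HORVU1Hr1G045630 and HORVU1Hr1G049420, all through hairpin-arm names. At 48 of the 53 pairs the same site was listed. HORVU0Hr1G018380 had 4 reads in category 2 in ZD9 and was in category 4 in XZ153, at the same position and an Allen score of 4.5, whereas HORVU1Hr1G042270 had 1 read on each of 2 isoforms in ZD9 and was in category 2 in XZ153. HORVU1Hr1G043940 had 1 to 4 reads on 6 isoforms in ZD9 at an Allen score of 6, with p-values of 0.933 or more in ZD9 and 0.991 or more in XZ153.

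Records with 3 or more ZD9 reads were listed again in XZ153 at a higher share than records with 1 read, as they were over all names. The same name, transcript and position appeared in XZ153 for 31 of 263 records with 1 read (11.8%, 8.15 to 16.3%), for 6 of 51 with 2 reads (11.8%, 4.44 to 23.9%), for 12 of 36 with 3 to 5 reads (33.3%, 18.6 to 51%) and for 5 of 8 with more than 5 reads (62.5%, 24.5 to 91.5%). Over all names the shares were 9.87%, 19.3%, 37.6% and 74.4% in the same classes. By family the higher shares came from miR2118, with 11 of 28 listed again at 3 to 5 reads and 5 of 8 above 5 reads. The other families had no record above 5 reads. For miR482 the counts were 5 of 44 at 1 read, 2 of 8 at 2 reads and 1 of 7 at 3 to 5 reads, and for miR9863 they were 2 of 25, 0 of 3 and 0 of 1. The last class comes from 6 genes, isoforms of 1 gene count separately in each class, and no test was made. Of the 54 records in both lists, 24 kept their category and 18 of these were in category 4, while none was in category 0 in either library.

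**Figure D4:**
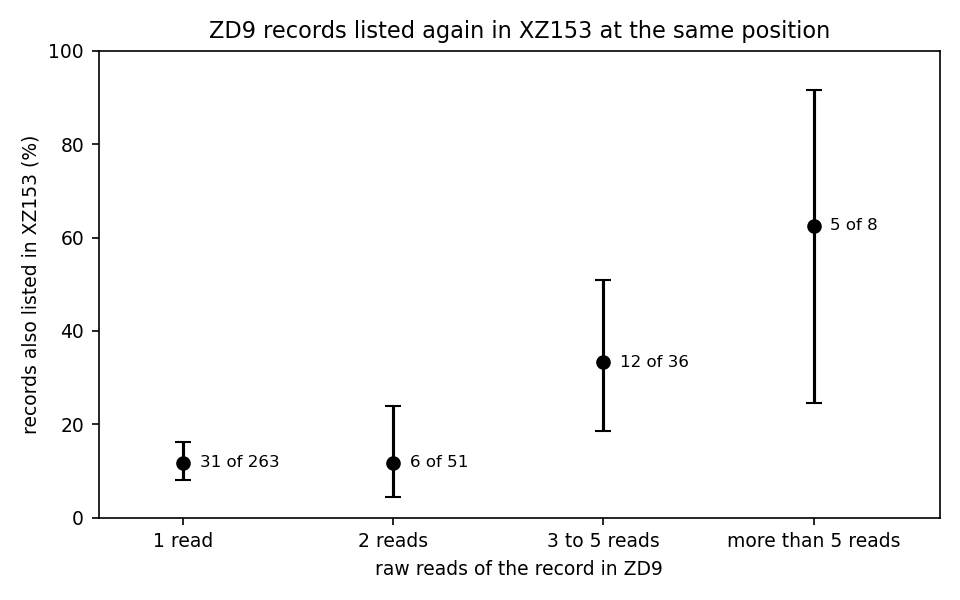
Percent of the ZD9 records of the 3 families that were listed in XZ153 under the same name, transcript and position, by the raw reads of the record in ZD9, with exact binomial 95% intervals as bars and counts beside the points. The share is 11.8% at 1 read and at 2 reads, 33.3% at 3 to 5 reads and 62.5% above 5 reads.

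The target sites were searched for letters that could encode a P-loop. The planned motif, in any of 3 frames, was glycine, any residue, glycine, lysine and then serine or threonine, and it was found at 0 of 197 distinct sites in ZD9 (up to 1.52% by the rule of 3 counts, exact upper end 1.86%) and 0 of 607 in XZ153 (up to 0.494%, exact upper end 0.606%). Over all names it was found at 0.0118% of ZD9 sites and 0.0640% of XZ153 sites, and among names of 22 nt at 0% in both. A site exactly complementary to any of the 15 names of the set would not hold it.

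The start of the same loop was then searched as glycine, any residue, glycine, glycine, any residue, glycine, a motif added after the data were seen. Exact complements of all 4 mature miR2118 and miR482 names spell it in 1 frame, and those of the miR9863 names and of the arm pieces do not. It was found at 12 of 197 sites in ZD9 (6.09%, 3.19 to 10.4%) and 26 of 607 in XZ153 (4.28%, 2.82 to 6.21%), while 0.875% of all ZD9 sites and 0.806% of all XZ153 sites held it. At sites of mature names it was found at 7 of 27 in ZD9 (25.9%) and 11 of 49 in XZ153 (22.4%), against 3.36% and 2.55% of the sites of all names of 22 nt. In ZD9 these were 7 of 19 mature miR482 sites, with 0 of 6 for miR2118 and 0 of 2 for miR9863. In XZ153 they were 7 of 29 for miR482 and 4 of 14 for miR2118, with 0 of 6 for miR9863. Since these small RNAs pair with such letters, sites listed for them are drawn to the motif by how they were found. The shares over all names and over names of 22 nt also include the sites of the set. The comparison therefore cannot tell pairing from any other reason, and no conclusion is drawn from it. The mature sites with the motif on HORVU1Hr1G087070 (miR482, ZD9) and HORVU7Hr1G069460 (miR2118, XZ153) hold neither gga nor gag. These genes were picked after their values were seen. The 3 sites printed here as examples all hold repeats of the letters gga or gag, so they do not stand for every site with the motif.
HORVU1Hr1G027420, miR482, both libraries: cuggaagaggagGaaguggaag
HORVU3Hr1G072880, miR482, XZ153: guggaggaggagGaggaggaga
HORVU5Hr1G103190, miR2118, XZ153: gcggcaugggugGaggaggccc
The reading frame of the transcripts was not used here. HORVU5Hr1G103190, picked after its values were seen, had this site on 2 isoforms in category 4, with an Allen score of 10 and p-values of 0.422 and 0.404.

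At 3 genes a site of miR2118 and a site of miR482 overlapped by at least 14 bases, and these genes were picked after their values were seen. On HORVU2Hr1G029220 in ZD9, the cuts of mature miR2118 and of ghr-miR482b were 2 bases apart with 20 bases in common.
HORVU2Hr1G029220, miR2118: caggcauggaugGaguggguga
HORVU2Hr1G029220, miR482: ggcauggauggaGugggugauga
The miR2118 record had 1 read on isoforms 4, 7 and 10 and 2 reads on isoform 6, with an Allen score of 7, and the miR482 record had 1 read on each of isoforms 4, 7 and 8, with an Allen score of 6. In XZ153 the overlaps were on HORVU3Hr1G068500, where the same names lay 2 bases apart on 3 isoforms at Allen scores of 13 and 12, and on HORVU7Hr1G121870.

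A list of 8 other families known to trigger phased small RNAs or to target NLR messages was looked up. Of miR2275, miR390, miR472, miR1507, miR2109, miR5300, miR6019 and miR7122, miR390 alone had records, at 34 on 19 genes in ZD9 and 69 on 53 genes in XZ153. None of the miR390 records was supported, and the lowest of their p-values were 0.687 (ZD9) and 0.0861 (XZ153).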

How the data were processed

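Per the plot paths in the files, the deposited lists are CleaveLand output. Its version, the read aligner, the transcript set and the build were not given in the sources used here. Per the file headers, each record gives the raw read count at the position (used for ZD9 alone), the free energy ratio as a fraction, the Allen score and the category score, an unadjusted p-value, and the start, end and cut position in the transcript. Small RNA and target sequences were copied from these deposited files. No reads were realigned, and no value was renormalised.

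Records were taken by small RNA name, and transcript IDs without the isoform suffix were counted as genes. Sites were merged by gene, name and target sequence. Shares carry exact Clopper-Pearson intervals and gene counts exact Poisson intervals at 95%, which cover counting error only. Python 3.11.15 with pandas 2.3.3 and scipy 1.17.1 was used, with figures from matplotlib 3.10.9. The name matching, the motif search, the search for shared bases and the count intervals were checked on made-up inputs. The members, the family list, the motif and the limits were chosen with earlier results of these data known. Genes are named by a rule: for each family, genes with a supported record, genes in both libraries with an Allen score of at most 7, the 3 genes with the lowest p-value per library, the 3 with the most ZD9 reads and genes whose site spells the P-loop, at most 12 genes in that order. Other genes are named as picked after their values were seen. The alternatives are listed with their effect in the closing section. Some small RNAs and positions may not be in the files used here.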

Additional observations from a re-analysis of the deposited data

Results flagged for a closer look

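The ZD9 list names 37 further positions of these families that carry no values, beyond the last record with values, and no comparison in the report uses them. They comprise 26 positions of miR2118, 9 of miR482 and 2 of miR9863, on 23 genes. All 37 were also listed in XZ153 under the same name, as were all 1941 ZD9 records without values over all names. They were singled out because they hold a site but no read count, category, score or p-value. Why the values are missing was not tested.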

How the results depend on the processing

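No paired analysis was possible because each cultivar has 1 library. With mature names only, the genes hit were 23 in ZD9 and 45 in XZ153, the category 0 records and genes were 1 and 1 in ZD9 and 3 and 3 in XZ153; counted by transcript, 349 and 877 were hit, and at an Allen score of at most 7, 54 and 191. XZ153 cut to the shared range had 111 genes. Supported pairs stayed at 0 in ZD9 under all 5 alternatives run (p-value of at most 0.01 or 0.1, category 0, category 0 to 3, mature names); in XZ153 they were 1 at a p-value of at most 0.01 and 2 to 4 under the other 4. Well-paired records at Allen scores of at most 2.5 and 7 were 0 and 102 in ZD9 (0 and 54 genes) and 5 and 286 in XZ153 (5 and 191 genes). Genes in both libraries were 37 at the same position and name and 48 with 14 shared bases, against 53. The P-loop count was 3 in ZD9 and 4 in XZ153 with the motif shortened to glycine, lysine and serine or threonine, 0 in both with a longer one, and 12 and 26 with the added glycine motif. Reads summed over all ZD9 records were 611 against 371. Of the alternatives for these totals, 13 stayed within 1.5 times the main count and 25 did not. By construction, those that moved admit fewer or more records or sites, or count the same records in another way. Depth is unknown, and with 1 library per cultivar no difference between them can be told from a difference between libraries.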
